A study of Sus scrofa with 9 samples.

Results

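The miRNAs described here are miR-29a, miR-29b, miR-29c, miR-148a, miR-148b and miR-152, 6 miRNAs of 2 seed families known for targeting DNA methyltransferase mRNAs. They were taken by name, with all species prefixes, arms and sequence variants, and gave 11 names in 12 rows, of 1313 names in 1420 rows of the table. Small RNA of pig (Sus scrofa) was sequenced in 3 groups of 3 libraries, none of them treated: metaphase II (MII) oocytes, pronuclear (PN) embryos made by fertilization in vitro, and mature sperm. The oocytes came from ovaries of postpubertal gilts, were matured in vitro and were freed of cumulus cells, the sperm were purified fresh sperm of adult boars, and oocytes and embryos were pooled in large numbers. The labels did not say whether the libraries of a group came from separate pools or animals, so the tests measure the spread between these libraries, which may be technical.

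The oocyte libraries held 289183 to 381674 counts, the embryo libraries 422630 to 771001 and the sperm libraries 1640492 to 2455102, so that depth and group cannot be told apart. A level is given in CPM, the count divided by the library total and scaled to a common total of 1000000. The sperm markers miR-34b, miR-34c and miR-449a were all listed in sperm and summed to between 150757 and 152999 CPM there, against 2036 to 2099 CPM in MII oocytes and 2250 to 2455 CPM in PN embryos. The epithelial list, which holds miR-205, summed to between 453294 and 494621 CPM in the oocyte and embryo libraries and to between 6467 and 6990 CPM in sperm. In sperm the liver marker miR-122 lay between 2026 and 2067 CPM, and the 6 blood markers summed to between 268 and 380 CPM. The 6 markers of follicle somatic cells and stroma summed to between 731 and 807 CPM there, and the 4 muscle markers to between 12.6 and 17.1 CPM. The part of other cells in the sperm levels was not tested. Leaving miR-205 out of the library totals was an alternative chosen after seeing the data. It changed the log2 fold changes between sperm and the other groups by about 1 for member names with counts on both sides. Those values are given beside the folds of the members, but not for family sums or other miRNAs. A level is a share of a library, so fewer RNA molecules per cell and more of other RNA cannot be told apart in these bulk samples.

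miRNAs guide Argonaute proteins to mRNAs, mainly by pairing of the seed near their 5′ end, and the bound mRNAs are repressed or degraded. The members of each family share a seed, so they can bind the same sites. The miR-29 family is known to target the de novo methyltransferases DNMT3A and DNMT3B and also TET enzymes, which oxidize methylated cytosine. The miR-148/miR-152 family is known to target DNMT1, the maintenance methyltransferase that copies methylation after replication. DNA methylation of both parental genomes is remodelled after fertilization, which is why these miRNAs are of interest in gametes and zygotes. The mRNAs of these enzymes were not analysed here.

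In the RefSeq annotation of Sscrofa11.1, the build named in the submitters' processing notes, 7 miRNA genes encode the 6 miRNAs. MIR148A lies on chromosome 18 from 46415213 to 46415280, MIR148B on chromosome 5 from 19530990 to 19531069 and MIR152 on chromosome 12 from 24292249 to 24292328. The miR-29 genes lie in pairs. MIR29B-1 (chromosome 18, 18039629 to 18039709) and MIR29A (18040032 to 18040117) are separated by 322 bases, and MIR29B-2 (chromosome 9, 135019079 to 135019162) and MIR29C (135019638 to 135019725) by 475 bases. ssc-miR-29b_L+1R-3 filled 2 rows with identical values, which were summed.

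miR-148a-3p was the most abundant of the 11 names in MII oocytes and PN embryos and was much lower in sperm. ssc-miR-148a-3p stood at 28249, 27308 and 26105 CPM in MII oocytes 1, 2 and 3, at 19114, 18643 and 19826 CPM in PN embryos and at 956, 955 and 941 CPM in sperm. The 3 groups did not overlap. By mean level it ranked 4 among all names in MII oocytes, 6 in PN embryos and 92 in sperm. It was 27.5-fold lower in sperm than in MII oocytes (log2 fold change -4.78 ± 0.05, SE; edgeR quasi-likelihood test with Benjamini-Hochberg adjustment over 587 names, q = 1.88e-13) and 18.5-fold lower than in PN embryos (-4.21 ± 0.05, edgeR q = 1.69e-13). Without miR-205 in the totals these log2 fold changes were -5.76 and -5.21.

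miR-148b, which shares its seed, had the opposite distribution. ssc-miR-148b-3p stood at 217, 309 and 225 CPM in MII oocytes, at 187, 204.95 and 285 CPM in PN embryos and at 3557, 3457 and 3587 CPM in sperm. The oocyte and embryo libraries overlapped and all lay below the sperm libraries. It was 14.8-fold higher in sperm than in MII oocytes (log2 fold change 3.89 ± 0.15, SE; edgeR q = 2.13e-09) and 16.8-fold higher than in PN embryos (4.07 ± 0.14, edgeR q = 7.75e-10). Without miR-205 in the totals the log2 fold changes were smaller, at 2.91 and 3.07, and both passed the thresholds.

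miR-152, which also has this seed, followed miR-148a between sperm and the other groups. ssc-miR-152 stood at 592, 478 and 512 CPM in MII oocytes, at 636, 582 and 562 CPM in PN embryos and at 19.5, 16.7 and 28.9 CPM in sperm. The sperm libraries lay far below the others, which overlapped. It was 22.6-fold lower in sperm than in MII oocytes (log2 fold change -4.50 ± 0.18, SE; edgeR q = 3.33e-09) and 24.1-fold lower than in PN embryos (-4.59 ± 0.18, edgeR q = 1.69e-09). The values without miR-205 in the totals were -5.48 and -5.59.

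**Figure D1:**
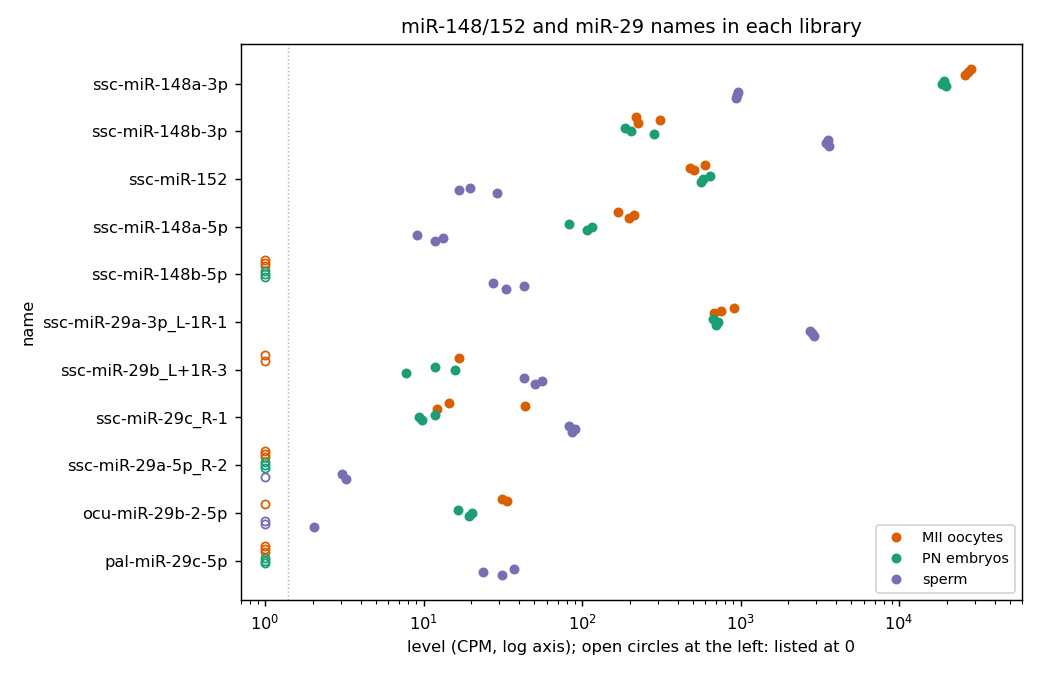
Level of each of the 11 names in each library, in CPM on a log axis, coloured by group, with open circles at the left for libraries listed at 0. miR-148a-3p and miR-152 lie to the left in sperm, whereas miR-148b-3p and the guide-arm names of miR-29 lie to the right.

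The make-up of the miR-148/miR-152 family therefore differed between sperm and the other groups, on a measure that library scaling does not touch. Among the guide-arm counts of the family (miR-148a-3p, miR-148b-3p and miR-152), miR-148a took 97.2% ± 0.030 in MII oocytes, 95.9% ± 0.039 in PN embryos and 21.1% ± 0.46 in sperm (SD, n = 3 each). miR-148b took 0.895% ± 0.18, 1.12% ± 0.23 and 78.4% ± 0.33. miR-152 took 1.88% ± 0.17, 2.97% ± 0.24 and 0.481% ± 0.14. In single libraries the ratio of miR-148a-3p to miR-148b-3p lay between 88.3 and 130 in MII oocytes, between 69.5 and 102 in PN embryos and between 0.262 and 0.276 in sperm.

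For shares, 18 two-sided exact permutation tests were run, 1 for each of 6 miRNAs and 3 pairs of groups. With 3 libraries against 3 the smallest possible p is 0.1. All 6 comparisons of miR-148a and miR-148b shares between sperm and another group gave p = 0.1 (0.18 adjusted over the 18 tests, exact permutation). The design cannot pass 0.05. Between PN embryos and MII oocytes the share of miR-148a differed by -1.32 percentage points and that of miR-152 by 1.09 percentage points, each without overlap of the groups (exact permutation p = 0.1, 0.18 adjusted).

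**Figure D2:**
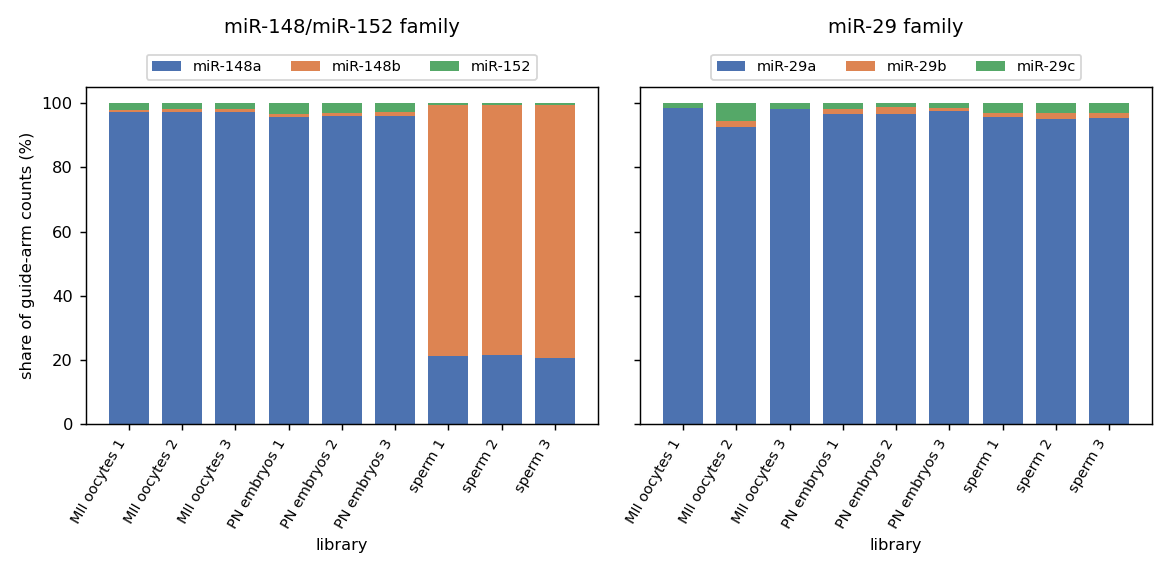
Share of each miRNA in the guide-arm counts of its family (per cent, stacked bars), one bar per library. In the miR-148/miR-152 family miR-148a fills 95.9% to 97.3% of each oocyte and embryo bar, and miR-148b fills 78.1% to 78.7% of each sperm bar; in the miR-29 family miR-29a fills 92.6% to 98.4% of every bar.

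miR-29a was the leading member of the miR-29 family in every library. ssc-miR-29a-3p_L-1R-1 stood at 905, 749 and 683 CPM in MII oocytes, at 667, 723 and 698 CPM in PN embryos and at 2738, 2828 and 2892 CPM in sperm. The sperm libraries lay above all others, and the oocyte and embryo libraries overlapped. It was 3.75-fold higher in sperm than in MII oocytes (log2 fold change 1.91 ± 0.09, SE; edgeR q = 9.44e-09) and 4.43-fold higher than in PN embryos (2.15 ± 0.09, edgeR q = 2.19e-09). When library totals were taken without the miR-205 names, these log2 fold changes were 0.92 (edgeR q = 1.54e-06) and 1.14 (edgeR q = 1.47e-07), so the first no longer reached the fold threshold of 1. That setting also took library totals in place of TMM and applied the filter on low counts anew, so another set of names was tested. Over the names tested, the median was -1.29 in sperm against MII oocytes and -2.37 in sperm against PN embryos. The main fit had 0 and -0.52 over its own names, so these medians do not measure the change in scaling alone. In each setting miR-29a-3p lay above the median of both comparisons.

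The other miR-29 members were scarce, and their values rest on few reads outside sperm. ssc-miR-29c_R-1 had 5.5, 13 and 3.5 counts in MII oocytes, 5, 6.5 and 7.5 in PN embryos and 135.5, 156.25 and 212.75 in sperm. Its level was 23.3 ± 17.5 CPM in MII oocytes, 10.3 ± 1.34 in PN embryos and 86.5 ± 3.77 in sperm (SD, n = 3 each). It was higher in sperm than in MII oocytes (log2 fold change 1.91 ± 0.34, SE; edgeR q = 4.16e-04; 0.93 with q = 0.0281 without miR-205 in the totals) and than in PN embryos (3.22 ± 0.35, edgeR q = 7.98e-06; 2.22 without miR-205). Without MII oocyte 2, which had the most counts of the oocyte libraries, the first value was 2.72.

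ssc-miR-29b_L+1R-3 had 0, 5 and 0 counts in MII oocytes, 5, 11 and 6 in PN embryos and 71, 96.5 and 124.5 in sperm. Its level in sperm was 49.9 ± 6.24 CPM (SD, n = 3), above every other library. Sperm exceeded MII oocytes by a log2 fold change of 3.29 ± 0.74 (SE; edgeR q = 0.00184) and PN embryos by 2.21 ± 0.55 (edgeR q = 0.00309). The first of these rests on a single oocyte library with any count, and without that library, MII oocyte 2, it was 8.79, a fitted value against libraries all at 0 and no measured fold. Without miR-205 in the totals they were 2.32 (edgeR q = 0.0169) and 1.21 (edgeR q = 0.0597).

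The values of family members were not fully independent of each other. Of the 3 guide-arm names of miR-29, 16 values in 7 of 9 libraries were not whole, yet the sum over the 3 names was whole in 9 of 9 libraries (tolerance 0.02). Such values would be left by a division of shared reads among members, but no source used here states how shared reads were counted. miR-148a-3p and miR-148b-3p showed the same in 2 libraries, with a sum that was whole in 9 of 9. All values of miR-152 were whole. The share of the miR-29b and miR-29c counts that came from such reads was not tested.

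Within the miR-29 family the shares of sperm and the other groups differed little. miR-29a took 96.4% ± 3.34 of the guide-arm counts in MII oocytes, 96.9% ± 0.55 in PN embryos and 95.4% ± 0.26 in sperm (SD, n = 3 each). miR-29c took 1.44% ± 0.24 in PN embryos and 2.93% ± 0.092 in sperm, without overlap of the groups (exact permutation p = 0.1, 0.18 adjusted). In MII oocytes it took 1.57%, 5.37% and 1.74%, a range that held the values of sperm. Thus sperm differed from oocytes in which miR-148/miR-152 member led, by 77.5 percentage points for miR-148b, whereas for miR-29 the same member led everywhere and its share differed by -1.03 percentage points (exact permutation p = 0.6, 0.72 adjusted).

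The 5p arms, which pair with the guide arms in the hairpin and have other seeds, reached at most 214 CPM in any library. ssc-miR-148a-5p stood at 168, 214 and 197 CPM in MII oocytes, at 82.8, 115 and 108 CPM in PN embryos and at 9.14, 13.3 and 11.8 CPM in sperm. It fell with its guide arm and made up 0.590% to 0.777% of the miR-148a counts in MII oocytes, 0.431% to 0.613% in PN embryos and 0.947% to 1.37% in sperm. It was 15.9-fold lower in sperm than in MII oocytes (log2 fold change -3.99 ± 0.23, SE; edgeR q = 4.63e-08) and 8.12-fold lower than in PN embryos (-3.02 ± 0.22, edgeR q = 3.99e-07). They became -4.97 and -4.02 without miR-205 in the totals.

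ssc-miR-148b-5p had 45, 74 and 81 counts in sperm (34.4 ± 7.72 CPM, SD, n = 3) and was listed at 0 in every oocyte and embryo library. Against a limit of 5 reads per library, which a listed 0 may hide in this table, it was at least 2.19-fold higher in sperm than in MII oocytes (edgeR q = 7.36e-04) and at least 4.04-fold higher than in PN embryos (edgeR q = 2.33e-04). Each q in this paragraph belongs to a fitted value against libraries all at 0, not to the bound. The bounds were taken with miR-205 in the totals. With the libraries thinned to equal depth, ssc-miR-148b-5p was tested in 1 of 20 draws. pal-miR-29c-5p had 61, 41 and 77 counts in sperm (30.7 ± 6.79 CPM, SD, n = 3), was listed at 0 elsewhere, and was at least 1.96-fold higher than in MII oocytes (edgeR q = 8.20e-04) and 3.61-fold higher than in PN embryos (edgeR q = 2.62e-04). The bound against MII oocytes lies under the fold threshold, so that call rests on a fitted value against libraries all at 0, and the name was not tested without miR-205 in the totals. It made up 20.8% to 31.0% of the miR-29c counts of sperm libraries. ssc-miR-29a-5p_R-2 had 5, 0 and 8 counts in sperm and 0 in the other libraries, and was the only name that did not pass the filter on low counts.

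The 5p arm of miR-29b-2 ran against ssc-miR-29b_L+1R-3, a name that MIR29B-1 and MIR29B-2 may both give. ocu-miR-29b-2-5p had 12, 10 and 0 counts in MII oocytes, 7, 14 and 15 in PN embryos and 0, 0 and 5 in sperm. In 2 of 3 MII oocyte libraries and in all PN embryo libraries its count was above that of ssc-miR-29b_L+1R-3, whereas sperm held at least 71 counts of the guide name per library. Sperm differed from MII oocytes by a log2 fold change of -4.51 ± 1.17 (SE; edgeR q = 0.00438, and q = 0.0571 with the replicate number as a block) and from PN embryos by -4.22 ± 1.13 (edgeR q = 0.00488). MII oocyte 3 overlapped with sperm at 0. They were -5.44 and -5.18 without miR-205 in the totals. With one library left out the main values ran from -7.09 to -3.85 and from -6.82 to -3.55. The lowest were without sperm 3, the one sperm library with a count, and are fitted values against libraries all at 0. Leaving out MII oocyte 1 (-3.92) or sperm 1 in the first comparison, and sperm 1 or sperm 2 (-3.63) in the second, also moved the fold by more than 1.5 times.

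**Figure D3:**
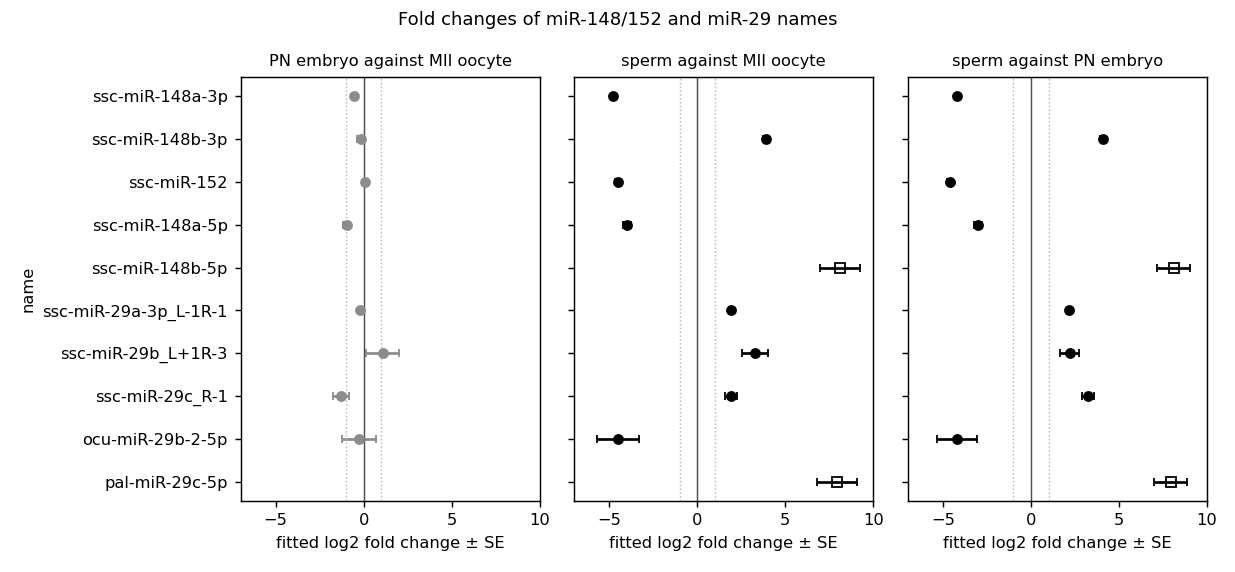
Fitted log2 fold change with its SE (bars) for the 10 names tested, in the 3 comparisons. Black marks called names, which had an adjusted p under 0.05 and a log2 fold change beyond 1 in either direction (dotted lines), grey names not called; open squares mark names listed at 0 in one group, whose fitted value is no measured fold, and names at 0 in both groups are not drawn.

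Counted by name, 6 of 10 tested names were higher and 4 lower in sperm than in MII oocytes, and likewise against PN embryos. Of all 587 names tested, 83% were called in sperm against MII oocytes (42.2% higher, 40.7% lower) and 86.2% in sperm against PN embryos (38.8% higher, 47.4% lower), so that 10 of 10 lay not far above the background. At q under 0.05 without a fold threshold 88.9% and 92.2% of all names passed. The median log2 fold change of the 10 names was 1.91 against 0 for all names in the first comparison, and 2.18 against -0.52 in the second. With the 2 names listed at 0 outside sperm set to their lower bounds, the medians of the 10 names were 1.05 and 1.93. The filter on low counts kept ssc-miR-148b-5p, pal-miR-29c-5p, ssc-miR-29b_L+1R-3 and ssc-miR-29c_R-1 only through their levels in sperm. Among the lower names, it kept ocu-miR-29b-2-5p and ssc-miR-148a-5p only through their levels outside sperm. In sperm these reached at most 2.04 and 13.3 CPM. The counts of higher and lower names and the medians hold names kept in this way. Neither the counts nor the medians are therefore evidence of a direction of the set. These comparisons share the sperm libraries. Between the groups 9 of 10 names did not overlap in the first and 10 of 10 in the second, where 81.6% and 92.2% of all names did not.

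PN embryos were compared with MII oocytes to ask which levels differed after fertilization. No name was called (0 of 10 tested, with 2 of the 10 at 0 in both groups), where 12.9% of all names were (11.2% higher, 1.7% lower). With only these 2 groups in the fit, 5 names passed the filter and 1 was called, so 0 of 10 overstates what was testable here. At an unadjusted p under 0.05 there were 4 names by edgeR, and DESeq2 called 1, ssc-miR-29c_R-1 (log2 fold change -1.31, DESeq2 q = 0.0457). At q under 0.05 without a fold threshold there were 2, both arms of miR-148a, where 25.2% of all names passed. The groups did not overlap for 3 of 10 names, against 39.5% of all names.

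Both arms of miR-148a were lower in PN embryos. ssc-miR-148a-3p fell from 27221 ± 1075 to 19194 ± 596 CPM (SD, n = 3 each), a log2 fold change of -0.57 ± 0.04 (SE; edgeR q = 8.64e-06), with every embryo library below every oocyte library. ssc-miR-148a-5p fell from 193 ± 23.4 to 102 ± 16.9 CPM, a log2 fold change of -0.97 ± 0.20 (edgeR q = 0.00534), and its call at a log2 fold change of 1 turned on the settings. Beside this, the liver marker miR-122 lay between 879 and 980 CPM in the oocyte libraries and between 201 and 246 CPM in the embryo libraries, the 4 muscle markers summed to between 96.8 and 246 CPM in MII oocytes and to 0 in PN embryos, and the 6 blood markers summed to between 166 and 314 CPM in MII oocytes and between 837 and 875 CPM in PN embryos. The 6 markers of follicle somatic cells and stroma summed to between 889 and 1085 CPM in MII oocytes and between 627 and 774 CPM in PN embryos, with miR-214 at 0 in all libraries. The part of other cells in the miR-148a difference was not tested.

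With all libraries, none of the other names passed q under 0.05 by edgeR between PN embryos and MII oocytes. The log2 fold changes were 0.09 ± 0.15 for ssc-miR-152, -0.18 ± 0.18 for ssc-miR-148b-3p and -0.24 ± 0.09 for ssc-miR-29a-3p_L-1R-1 (SE; edgeR q = 0.770, 0.568 and 0.0952). Without MII oocyte 1, which had the highest level of miR-29a-3p, that of miR-29a-3p was 0.03, whereas it was -0.33 without MII oocyte 3 (edgeR q = 0.0334) and -0.24 by DESeq2 (q = 0.0188). For ssc-miR-29c_R-1 the value was -1.30 ± 0.47 (edgeR q = 0.0737), and it was -0.63 without MII oocyte 2 (edgeR q = 0.511) and -1.55 without MII oocyte 3 (edgeR q = 0.0456). It was 1.08 ± 0.93 for ssc-miR-29b_L+1R-3 (edgeR q = 0.474; 6.44 without MII oocyte 2, against libraries all at 0) and -0.29 ± 0.97 for ocu-miR-29b-2-5p (edgeR q = 0.971). The last 3 names had at most 15 counts in any oocyte or embryo library.

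Summed over the guide arms, the families ran in opposite directions between the gametes. The miR-148/miR-152 sum was 27998 ± 1112 CPM (SD, n = 3 each) in MII oocytes, against 20014 ± 625 in embryos and 4507 ± 68.1 in sperm. The miR-29 sum was 808 ± 112, 718 ± 28.6 and 2956 ± 84.2 CPM. As a description with no test, the miR-148/miR-152 sum was 6.21-fold lower and the miR-29 sum 3.66-fold higher in sperm than in MII oocytes. The size of these folds depends on scaling, and the sums were not taken without miR-205 in the totals. In that setting miR-29a-3p, the leading miR-29 member, had a log2 fold change of 0.92 in sperm against MII oocytes. The ratio of the sums within a library, which scaling does not touch, was 31.6 to 38.6 in MII oocytes, 26.0 to 28.9 in PN embryos and 1.49 to 1.58 in sperm.

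**Figure D4:**
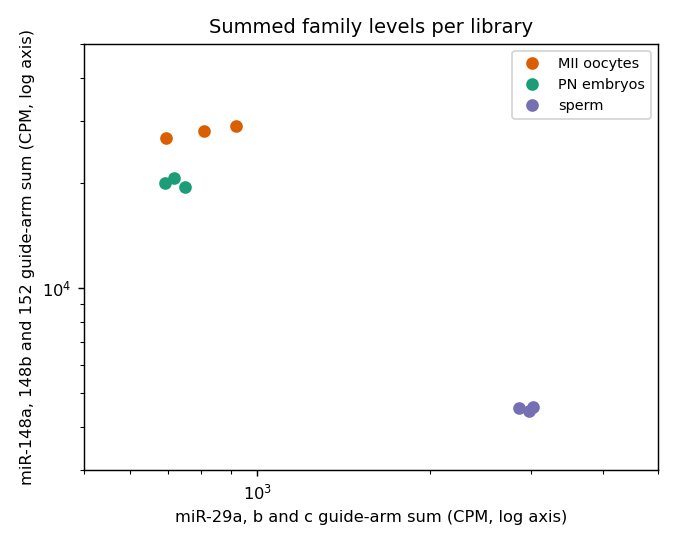
Summed guide-arm level of miR-148a, miR-148b and miR-152 against that of miR-29a, miR-29b and miR-29c, both in CPM on log axes, one point per library. Sperm libraries sit apart, with 4429 to 4557 CPM of miR-148/miR-152 and 2864 to 3029 CPM of miR-29; the embryo libraries lie below the oocyte libraries on the miR-148/miR-152 axis.

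The names whose levels ran most like each member were found by Pearson correlation of log2(CPM + 1) over the 9 libraries, among 492 other names. These values describe 3 groups of libraries that share their depth and source, and most of each correlation is the difference between sperm and the rest. ssc-miR-22-3p came first for miR-29a-3p (r = 0.997), PC-3p-9612_414 for miR-148a-3p (r = 0.9997), mmu-miR-34c-3p_L-1_1ss16AG for miR-148b-3p (r = 0.995) and bta-miR-2478_L-2 for miR-152 (r = 0.997). For the scarce names they were bta-mir-2887-2-p3_1ss20CT for miR-29b (r = 0.985) and ssc-miR-490-3p_R+1 for miR-29c (r = 0.992). Also among the 3 nearest were ssc-miR-30a-5p_R+2 at r = 0.999 for miR-148a-3p and ssc-miR-30e-5p at r = 0.994 for miR-148b-3p, both of the miR-30 family, which also lay on opposite sides in sperm. ssc-miR-30a-5p_R+2 was at 18515, 13461 and 1089 CPM and ssc-miR-30e-5p at 2053, 2032 and 19963 CPM, as means of MII oocytes, PN embryos and sperm.

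Of 7 other miRNAs that have been tied to methyltransferase or TET mRNAs (miR-126, miR-185, miR-342, miR-101, miR-143, miR-22 and miR-26), 15 names were listed and 10 tested. In sperm against MII oocytes 5 were higher and 1 lower, in sperm against PN embryos 4 were higher and 1 lower, and in PN embryos against MII oocytes 0 were higher and 1 lower. The shares called were below the 83% and 86.2% of all names in the 2 sperm comparisons. Between PN embryos and MII oocytes 1 of 10 lay near the 12.9% of all names. ssc-miR-22-3p, of a family known to target TET mRNAs, had a mean level of 1527 CPM in oocytes, 1318 in embryos and 8265 in sperm (log2 fold change 2.49 for sperm over oocytes, edgeR q = 6.91e-11). ssc-miR-342_R-2 was at 355, 505 and 2585 CPM (2.93, edgeR q = 1.20e-08). ssc-miR-185 was at 543, 485 and 732 CPM (0.49, edgeR q = 4.82e-04) and was not called. bta-miR-126-3p_L+1R-1, the most abundant miR-126 name, was at 0, 17.6 and 1.97 CPM and was not tested. The level of ssc-miR-26a was 7618, 8694 and 24159 CPM (1.72, edgeR q = 8.75e-10). Lower in sperm than in oocytes was ssc-miR-143-3p_R+1, at 89.2, 59.6 and 32.5 CPM (-1.38, edgeR q = 2.26e-04). These folds hold miR-205 in the totals, and values without it are not given for this list. A change of about 1, as in the members, would exceed the distance of ssc-miR-26a from the fold threshold. ssc-miR-101_R+1, known to target DNMT3A, was the 1 name lower in PN embryos, at 1207, 516 and 613 CPM in the same order (log2 fold change -1.30 for embryos over oocytes, edgeR q = 7.23e-05).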

How the data were processed

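Small RNA was ligated to adapters, reverse transcribed, amplified by PCR and gel-selected. The authors deposited estimated counts of reads per name, marked raw and not normalized, and 19.8% of those above 0 carried a decimal part. The submitters' processing notes name the build Sscrofa11.1, and the aligner and miRNA caller were not given in the sources used here. Groups and replicate numbers came from the sample titles, and 0 columns belonged to no sample. Rows of the same name were summed, giving 1313 names. In rows without shared counts, 4043 values were above 0, with 237 at exactly 5 reads and 28 whole values under that, so a listed 0 was taken to hide up to 5 reads per library, which is 13.1 to 17.3 CPM in MII oocytes, 6.49 to 11.8 in PN embryos and 2.04 to 3.05 in sperm. Limits cover counting error only, since PCR copies are not independent molecules.

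Rounded counts entered the edgeR 4.0.16 quasi-likelihood test (R 4.3.3), with all 9 libraries in one fit, TMM, filterByExpr by group (587 names kept, 99.8% of counts) and Benjamini-Hochberg adjustment within each comparison. Called names had q under 0.05 and a log2 fold change of 1 or more in either direction, the thresholds of the study. Each SE is the log2 fold change divided by the root of F. The fit was tested on simulated data for PN embryos against MII oocytes. At q under 0.05 it found 69.2% of names with a log2 fold change of 1 in size and 95.8% with 2. Replicate libraries differed by a chi-square per degree of freedom of 2.2 to 12.7, more than sampling noise. Names with a mean of at least 10 CPM in any group are given by library, and other members by counts. Likeness used names with a mean of at least 10 CPM, the 3 nearest to the top name of each miRNA. The members and lists were chosen with earlier results of these data known. Alternatives were other scalings and filters, DESeq2 1.42.0, the replicate block, other ways to sum names, thinning to 289180 counts (20 draws) and leaving out each library.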

Additional observations from a re-analysis of the deposited data

How the results depend on the processing

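In sperm against MII oocytes and against PN embryos, 10 names each were called, and 10 in each of the fits that left out one library. The fewest were 7 in both comparisons at equal depth (medians over 20 draws, 6 to 7 and 6 to 8), where 6 to 8 names were tested. In these 20 draws pal-miR-29c-5p and ocu-miR-29b-2-5p were tested in 0 and ssc-miR-148b-5p in 1, so equal depth left their calls almost untested. There ssc-miR-29c_R-1 against MII oocytes (14 of 20 draws) and ssc-miR-29b_L+1R-3 against PN embryos (13 of 19) lost calls in some draws that tested them. Without miR-205 in the totals, an alternative chosen after seeing the data, 7 and 8 names were called. With the replicate number as a block there were 9 and 10, and 0 in PN embryos against MII oocytes; ocu-miR-29b-2-5p in sperm against MII oocytes lost its call and the block changed no other. Same-numbered libraries deviated from their group means with correlations from -0.206 to 0.0282, and at most 2 of 3 libraries correlated best with their own number. With 3 pairs per comparison this cannot show whether same-numbered libraries shared a batch or source.

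In PN embryos against MII oocytes, 0 names were called. The count was 2 at q under 0.05 alone, 1 with the DESeq2 Wald test (ssc-miR-29c_R-1), and 1 with at least 10 counts in 3 libraries, with only the 2 groups compared and at equal depth (ssc-miR-148a-5p, log2 fold change -1.01, -1.0001 and -1.03). Leaving out one library gave 0 to 1. The name was ssc-miR-148a-5p without PN embryo 2 or 3, ssc-miR-29b_L+1R-3 without MII oocyte 2 (6.44, with the remaining 2 oocyte libraries at 0) and ssc-miR-29c_R-1 without MII oocyte 3 (-1.55) but not without MII oocyte 2 (-0.63). ssc-miR-148a-3p stayed lower in PN embryos in 21 of 21 alternatives, from -0.62 to -0.37.

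In the same comparison signs changed for ocu-miR-29b-2-5p (0.254 and 0.120 without MII oocyte 1 or 2, lowest -0.854 without MII oocyte 3), ssc-miR-29a-3p_L-1R-1 (0.0271 without MII oocyte 1, lowest -0.327 without MII oocyte 3) and ssc-miR-148b-3p (0.0372 with identical counts kept once). Share differences turned only in the miR-29 family: without one library, embryo minus oocyte for miR-29a was -1.42 to 1.51 percentage points, sperm minus embryo for miR-29b -0.228 to 0.286 and sperm minus oocyte for miR-29c -0.631 to 1.27. The causes were not tested. Of 575 alternative values for single names, 559 kept direction and call.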
